A study of Mus musculus with 6 samples.

Results

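The 10 miRNA genes Mir770, Mir673, Mir493, Mir540, Mir665, Mir431, Mir433, Mir127, Mir434 and Mir136 lie on mouse chromosome 12 in the Dlk1-Dio3 imprinted domain, in and beyond the long noncoding RNA gene Meg3 and opposite the coding gene Rtl1. They were chosen by name and position, as the rows of those names between Meg3 and the end of Rtl1, and are 10 of the 1155 rows of the count table. Small RNA was sequenced from mouse embryonic fibroblasts, connective tissue cells cultured from embryos, with 3 libraries of genotype Fbxw7 KO and 3 of genotype WT, to find expression differences that go with the knockout. Both groups were grown in the same medium, and no treatment or time is labelled. The sources used here give no strain, deleted allele, means of deletion, embryo or clone. The p-values therefore measure the spread between libraries, which may be technical.

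The Dlk1-Dio3 domain is expressed by parent of origin. The maternal chromosome makes Meg3 and the noncoding RNAs downstream of it, from which the miRNAs are cut, while the paternal chromosome makes the protein-coding genes Dlk1, Rtl1 and Dio3. In mouse, Meg3 is kept silent on the paternal chromosome by DNA methylation between Dlk1 and Meg3. Rtl1 is a retrotransposon-derived gene needed in the placenta, and the miRNAs antisense to it pair with its mRNA along their whole length and direct its cleavage. FBXW7 is an F-box protein through which an SCF ubiquitin ligase binds its substrates, and Myc and Notch are among the proteins broken down in this way.

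The 10 hairpins span 31697 bases of the plus strand of mm10, the build of the table. Mir770 (chr12:109563692-109563785) lies in an exon of Meg3 in GENCODE M21. Mir673 (chr12:109571990-109572080), Mir493 (chr12:109580233-109580315), Mir540 (chr12:109586080-109586146) and Mir665 (chr12:109586314-109586407) lie between annotated genes, and 167 bases separate Mir540 from Mir665. The other five lie within 4942 bases, opposite the exon of Rtl1, which is read from the minus strand. They are Mir431 (chr12:109590447-109590537), Mir433 (chr12:109591715-109591838), Mir127 (chr12:109592846-109592915), Mir434 (chr12:109594506-109594599) and Mir136 (chr12:109595327-109595388).

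The mature sequences of the 5 hairpins opposite Rtl1 are shown first because their pairing with Rtl1 sets them apart, written 5′ to 3′ with the seed (bases 2 to 8) in capitals. They are RefSeq sequences on GRCm38.p6, the same assembly as mm10.
miR-431-5p: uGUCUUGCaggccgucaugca
miR-431-3p: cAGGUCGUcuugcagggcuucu
miR-433-5p: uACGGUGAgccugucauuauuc
miR-433-3p: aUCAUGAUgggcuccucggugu
miR-127-5p: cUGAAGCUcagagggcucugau
miR-127-3p: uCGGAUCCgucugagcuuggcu
miR-434-5p: gCUCGACUcaugguuugaacca
miR-434-3p: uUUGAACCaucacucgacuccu
miR-136-5p: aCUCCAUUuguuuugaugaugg
miR-136-3p: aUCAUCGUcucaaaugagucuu

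All 10 of these arms were perfectly complementary to the Rtl1 transcript of GENCODE M21, and none of the 10 arms of the other 5 hairpins was. The arms of Mir770, the hairpin with the most negative log2 fold change, and of Mir540, which had a low level in 1 library, are shown for comparison.
miR-770-5p: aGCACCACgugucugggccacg
miR-770-3p: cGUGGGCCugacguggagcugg
miR-540-5p: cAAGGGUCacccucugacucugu
miR-540-3p: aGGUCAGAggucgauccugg

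The 20 mature arms carried 20 different seeds, so no pair of the 10 hairpins forms a seed family. Among 1738 mature entries, 2 of the 20 seeds recurred outside the group, that of miR-673-5p in miR-6985-3p and that of miR-540-3p in miR-6915-5p. No hairpin shared a run of 20 bases with another, apart from Mir136, which lies wholly within Mir3071 on the opposite strand. The 2 arms of Mir3071 are given below to show how they mirror those of Mir136, with 20 bases of overlap between miR-136-5p and miR-3071-3p and 19 between the other two.
miR-3071-5p: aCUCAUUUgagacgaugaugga
miR-3071-3p: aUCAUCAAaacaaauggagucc

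The RefSeq window around the upstream Meg3 start (GRCm38.p6, plus strand, chr12:109540746-109541045) is shown because that start precedes all 10 hairpins on their strand. Capitals mark the cyclic AMP response element TGACGTCA, a palindrome that begins 57 bases before the start, and a TATA-like run that holds TATATAA on both strands.
Meg3 window: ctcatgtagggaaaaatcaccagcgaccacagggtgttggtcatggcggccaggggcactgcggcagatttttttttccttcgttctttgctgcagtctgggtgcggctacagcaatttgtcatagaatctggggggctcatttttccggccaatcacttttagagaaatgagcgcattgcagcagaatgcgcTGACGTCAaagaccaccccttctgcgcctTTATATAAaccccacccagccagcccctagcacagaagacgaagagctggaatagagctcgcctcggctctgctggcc

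TGACGTCA was present in 1.79% of the 32851 RefSeq promoter windows of this length and TATATAA, on either strand, in 3.24%. The palindrome CACGTG, the E-box to which Myc binds, had no match in the Meg3 window and was present in 7.15% of all windows. These are matches of letters only.

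Libraries held 2932439 to 3753353 counts in Fbxw7 KO and 3707576 to 5019700 in WT. The depths overlapped only in that Fbxw7 KO replicate 3 (3753353) was slightly above WT replicate 3 (3707576). Fbxw7 KO replicates 1 and 2 lay below every WT library. The fibroblast and mesenchymal markers held 59.3% to 63.0% of counts in Fbxw7 KO and 57.7% to 59.0% in WT, led by Mir21a and Mir143, with 3 of 12 tested markers higher and 1 lower. The muscle list held at most 0.0409% of a library, the neuronal list at most 0.0202%, the epithelial list at most 0.00618%, and the blood, liver and pluripotent lists at most 0.00232% each. Over all lists 19 marker rows stood at 0. Another row overlaps 10 of these, among them Mir22, Mir133a-1, Mir142, Mir124a-1 and Mir126a, so that reads over them can be lost in counting and their 0 was not read as a level. Mir208a, a heart muscle miRNA, and Mir302a, a stem cell miRNA, were among the 9 at 0 that no row overlaps. Mir206, the highest row of the muscle list, was not at 0. In CPM, counts scaled to library size, Mir206 had 221, 212 and 390 in Fbxw7 KO and 137, 165 and 218 in WT. The groups overlapped, and its log2 fold change, 0.66 with an SE of 0.27, was not called (edgeR adjusted p = 0.11). Of the muscle list 2 rows were tested, with 0 called higher and 0 lower. The part of these differences in the results was not tested. Fbxw7 KO replicate 3 stood apart from the other Fbxw7 KO libraries in several of the miRNAs described here. The log2 fold change of each tested miRNA of the group is given with and without it. The Fbxw7 transcript was not analysed here.

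Of the 10 miRNAs, 9 had enough counts to be tested, all 9 had lower fitted levels in Fbxw7 KO than in WT, and 3 of them passed the test across the whole table. Mir770 fell to 0.487 times its WT level and Mir433 to 0.634 times, and both calls held under every alternative that was run, while Mir431 was at the edge of the threshold. Only for Mir665 and for Mir127, the miRNA of the group with the most counts over the 6 libraries, did the genotypes overlap. Calls were made with edgeR's quasi-likelihood test at a Benjamini-Hochberg adjusted p under 0.05 over the 283 tested rows. Of these 283, 25.4% were called in either direction, with 10.2% called lower and 15.2% called higher, or 29 and 43 rows. A negative log2 fold change, called or not, was found for 132 of the 283. With TMM factors taken from rows outside the Dlk1-Dio3 region, 34 were called lower and 30 higher. None of the 9 was higher, with 0 also at an unadjusted p under 0.05 and 0 with DESeq2. All 3 Fbxw7 KO libraries lay below all 3 WT libraries for 7 of the 9, and this held for 20.1% of the 283 tested rows. The median log2 fold change was −0.56 over the 9 and 0.05 over all 283. Leaving out Fbxw7 KO replicate 3, it was −0.36 over the 9 and 0.06 over the 287 rows then tested. In bulk libraries, fewer cells that express a miRNA and less of it per cell cannot be told apart.

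**Figure D1:**
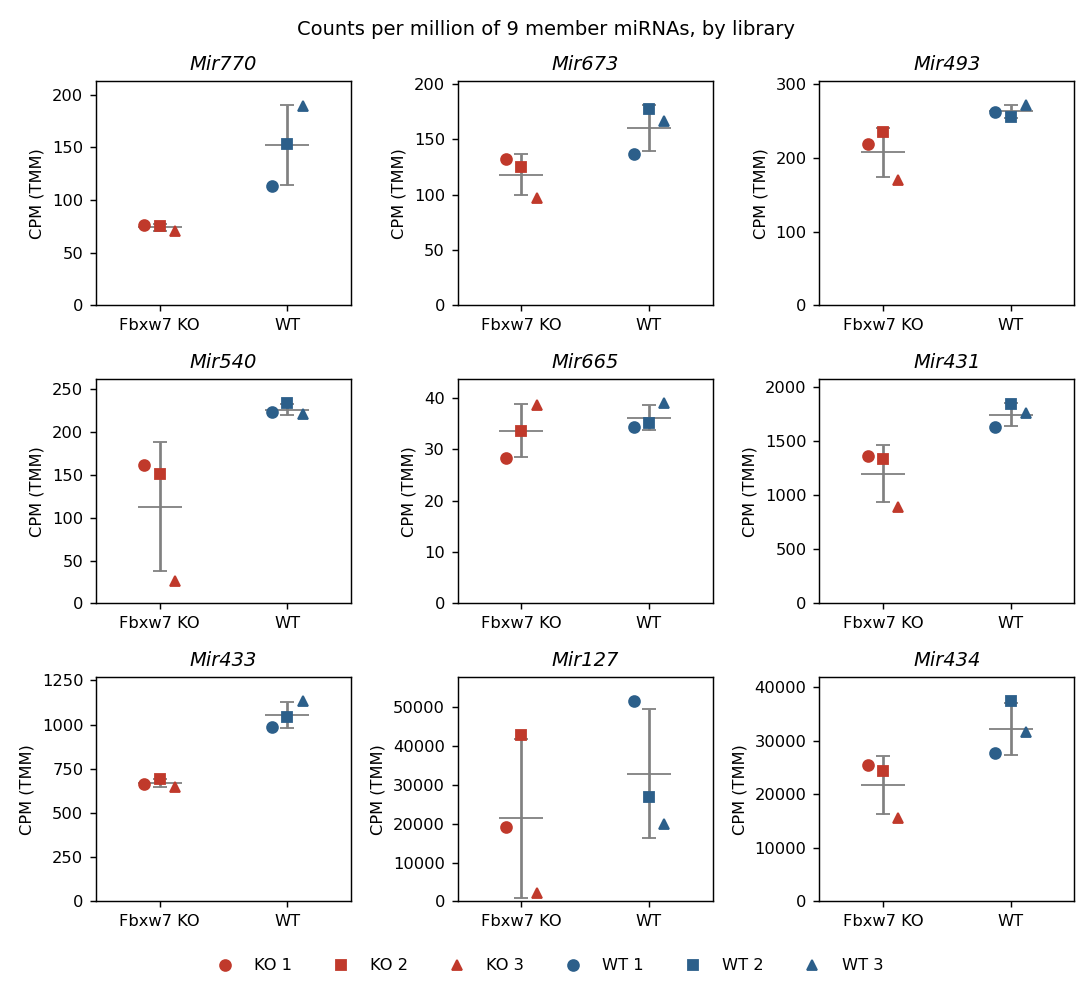
CPM, scaled by TMM factors on linear axes from 0, of the 9 tested miRNAs in the 3 Fbxw7 KO libraries (left, red) and the 3 WT libraries (right, blue). Points are libraries and grey bars are mean ± SD, and Fbxw7 KO lies wholly below WT except for Mir665 and Mir127.

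Mir770 is cut from Meg3 itself. Its level in CPM (counts relative to the TMM-scaled library total) was 76.3, 75.4 and 70.7 in Fbxw7 KO replicates 1 to 3, and 114, 154 and 189.5 in WT replicates 1 to 3. The Fbxw7 KO libraries were close to each other and below every WT library, while the WT libraries spread over a 1.67-fold range. The means were 74.1 ± 3.02 CPM in Fbxw7 KO and 152 ± 37.9 CPM in WT (SD, n = 3 each). The log2 fold change was −1.04, with an SE of 0.20 (edgeR adjusted p = 0.00761). Without Fbxw7 KO replicate 3 the log2 fold change was −0.99 (edgeR adjusted p = 0.011).

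Mir673 had 132, 125 and 96.8 CPM in Fbxw7 KO, against 137, 177 and 166 CPM in WT. The groups did not overlap, but the highest Fbxw7 KO library stood close to the lowest WT library, and the log2 fold change, −0.44 with an SE of 0.18, did not pass (edgeR adjusted p = 0.106). Mir493, reported in human colon cancer cells to restrain metastatic growth, had 218, 234 and 170.3 CPM in Fbxw7 KO and 262, 255 and 271 CPM in WT. Its WT libraries were tightly grouped, and its log2 fold change, −0.34 with an SE of 0.16, did not pass either (edgeR adjusted p = 0.159). Without Fbxw7 KO replicate 3, the lowest library for both, the log2 fold changes were −0.31 for Mir673 (edgeR adjusted p = 0.205) and −0.21 for Mir493 (edgeR adjusted p = 0.314).

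Mir540 had 161, 151 and 26.1 CPM in Fbxw7 KO, against 224, 234 and 221 CPM in WT. Every Fbxw7 KO library was below every WT library, and replicate 3 stood at 16.7% of the mean of replicates 1 and 2, from 102 counts against 511 and 444. The log2 fold change of −1.01 had an SE of 0.54 and did not pass (edgeR adjusted p = 0.216). Without Fbxw7 KO replicate 3 it was smaller, −0.52, and passed (edgeR adjusted p = 0.0221). Set against another hairpin of the same library, the ratio of Mir540 to Mir673 counts was 1.22, 1.21 and 0.270 in Fbxw7 KO and 1.63, 1.32 and 1.33 in WT. The low value of Mir540 in replicate 3 was therefore not matched by Mir673. Mir127 was lower still in that library, at 6.71% of the mean of replicates 1 and 2.

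Mir665, the near neighbour of Mir540, did not share the low value of replicate 3. It had 28.4, 33.6 and 38.7 CPM in Fbxw7 KO and 34.3, 35.2 and 39.0 CPM in WT, and Fbxw7 KO replicate 3 was the highest of its group. The groups overlapped, and the log2 fold change was −0.10 with an SE of 0.19 (edgeR adjusted p = 0.722). Without Fbxw7 KO replicate 3 it was −0.21 (edgeR adjusted p = 0.443), and without Fbxw7 KO replicate 1 it was −0.00067. Mir665 was counted least often of the 9, with 90 to 151 counts in Fbxw7 KO libraries and 148 to 171 in WT libraries.

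Among the miRNAs opposite Rtl1, Mir433 had 667, 692 and 648 CPM in Fbxw7 KO, against 988, 1045 and 1134 CPM in WT. Both groups were tight and well separated. The means were 669 ± 22.1 CPM in Fbxw7 KO and 1056 ± 73.5 CPM in WT (SD, n = 3 each). The log2 fold change was −0.66, with an SE of 0.11 (edgeR adjusted p = 0.00405), and −0.63 without Fbxw7 KO replicate 3 (edgeR adjusted p = 0.00474). Mir433 had the smallest spread within Fbxw7 KO of the 9 miRNAs, and Mir770 the next, with SDs of 0.05 and 0.06 in log2(CPM + 1), where the median over the 283 tested rows was 0.23.

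Mir431, which in mouse muscle stem cells is known to act on Pax7, had 1367, 1331 and 894 CPM in Fbxw7 KO and 1628, 1841 and 1762 CPM in WT. Replicate 3 was the lowest Fbxw7 KO library, and the groups did not overlap. The means of 1197 ± 263 CPM in Fbxw7 KO and 1744 ± 108 CPM in WT (SD, n = 3 each) were a log2 fold change of −0.54 apart, with an SE of 0.17 (edgeR adjusted p = 0.0494). The call was lost in 11 of 16 alternatives, among them each that left out a library other than Fbxw7 KO replicate 3, and without that library it was −0.36 (edgeR adjusted p = 0.0407).

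Mir434 had 25468, 24319 and 15597 CPM in Fbxw7 KO, against 27771, 37388 and 31520.4 CPM in WT. The groups did not overlap, and replicate 3 was again the lowest Fbxw7 KO library. The log2 fold change was −0.56 with an SE of 0.20 (edgeR adjusted p = 0.0737), just outside the threshold, and −0.36 without Fbxw7 KO replicate 3 (edgeR adjusted p = 0.0662).

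Mir127, known in human cancer cells to act on BCL6, had 19192, 42813 and 2082 CPM in Fbxw7 KO and 51619, 26953 and 20039.6 CPM in WT. The groups overlapped, and the highest Fbxw7 KO library was 20.6 times the lowest, against 2.58 times in WT. The counts behind these values ran from 8126 to 126038 in Fbxw7 KO and from 77089 to 257270 in WT. The log2 fold change was −0.62 with an SE of 1.09 (edgeR adjusted p = 0.722). It was −0.08 without Fbxw7 KO replicate 3 (edgeR adjusted p = 0.945).

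Mir136 had 0 counts in all 6 libraries and could not be tested. Its whole row lies within that of Mir3071 on the opposite strand, also at 0. The recorded counting command ignored strand and did not switch on the counting of reads over more than 1 row, and such reads are left out by default. Of the 36 rows of the table that lie wholly within another row, 35 were at 0 in every library (97.2%), against 424 of the 1083 rows that overlap none (39.2%). The 0 of Mir136 was therefore not read as a level, and no upper limit was drawn from it.

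The miRNAs opposite Rtl1 held nearly all counts of the group. Mir127 and Mir434 together made up 94.4%, 96.2% and 90.1% of the counts of the 10 rows in Fbxw7 KO, and 95.9%, 94.5% and 93.2% in WT. Mir127 alone made up 40.6%, 61.4% and 10.6% in Fbxw7 KO and 62.4%, 39.6% and 36.2% in WT, so the leading miRNA changed between libraries of 1 genotype. The ratio of Mir127 to Mir434 counts was 0.754, 1.76 and 0.133 in Fbxw7 KO and 1.86, 0.721 and 0.636 in WT. The 10 rows held 4.78%, 7.005% and 2.04% of all counts in Fbxw7 KO and 8.22%, 6.27% and 5.74% in WT. Without Mir127 the shares no longer overlapped, at 2.84%, 2.71% and 1.82% in Fbxw7 KO and 3.09%, 3.79% and 3.66% in WT. Most of these shares was Mir434 alone, which did not pass the test. It held 2.57%, 2.44% and 1.62% in Fbxw7 KO and 2.76%, 3.44% and 3.27% in WT. Of the 283 tested rows, 20.1% had all 3 Fbxw7 KO libraries below all 3 WT libraries. The 5 hairpins from Mir770 to Mir665 together held 0.0622%, 0.0621% and 0.0419% in Fbxw7 KO, against 0.0766%, 0.0787% and 0.0921% in WT, and these ranges did not overlap either. By genomic side, 1 of these 5 fell (median log2 fold change −0.44), and 2 of the 4 tested hairpins opposite Rtl1 fell (median −0.59), beside 10.2% of all tested rows called lower. The medians without Fbxw7 KO replicate 3 were −0.31 for these 5 and −0.36 for the 4 opposite Rtl1. Whether the sides differ was not tested.

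**Figure D2:**
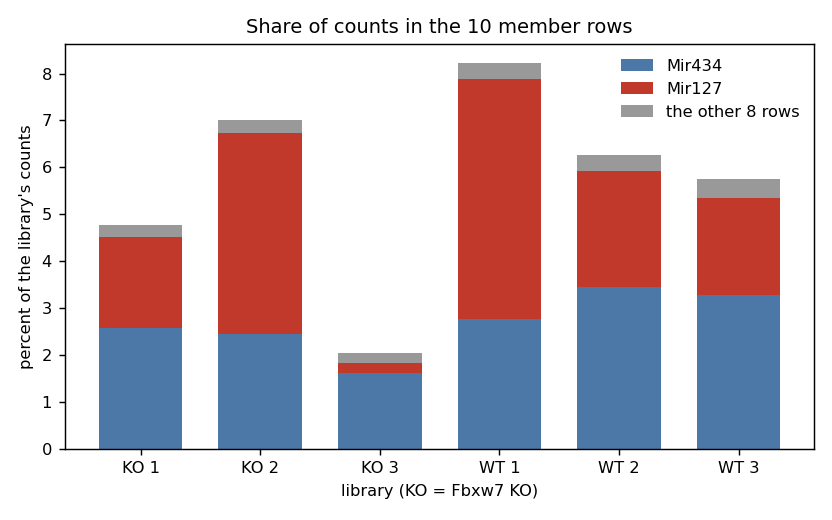
Percent of each library's counts held by Mir434 (blue), Mir127 (red) and the other 8 rows (grey), stacked from 0, for the Fbxw7 KO (left) and WT (right) libraries. The red part ranges from 0.217% to 4.30% in Fbxw7 KO and from 2.08% to 5.13% in WT, and the blue part from 1.62% to 2.57% in Fbxw7 KO and from 2.76% to 3.44% in WT.

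Per length, in the authors' deposited FPKM, the order of the levels was much the same in both genotypes. Mir127 averaged 305009 ± 288509 FPKM in Fbxw7 KO and 469188 ± 249412 FPKM in WT, and Mir434 averaged 233575 ± 57145 FPKM in Fbxw7 KO and 339084 ± 39984 FPKM in WT (SD, n = 3 each). These leading levels overlapped in both genotypes and cannot be ranked. Next came Mir431 with 13255 ± 2859 FPKM in Fbxw7 KO and 18991 ± 622 FPKM in WT, then Mir433 with 5439 ± 113 FPKM in Fbxw7 KO and 8445 ± 582 FPKM in WT, each set off from its neighbours. In Fbxw7 KO, Mir493, Mir540 and Mir673 followed. The range of Mir540 there overlapped those of Mir493 and Mir673, which were apart from each other, and Mir770 and Mir665 came last. In WT, Mir540 stood just above Mir493, while Mir673 and Mir770 overlapped. The place of Mir540 above Mir493 came from the division by row length, 67 bases for Mir540 and 83 for Mir493. In CPM, Mir493 was above Mir540 in every WT library, at 262, 255 and 271 against 224, 234 and 221. It was also above Mir540 in every Fbxw7 KO library. Mir665 was lowest, with 360.0 ± 55.4 FPKM in Fbxw7 KO and 382 ± 28.5 FPKM in WT.

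Fbxw7 KO replicate 3 differed from its group unequally along the 31697 bases. In log2(CPM + 1), its level minus the mean of replicates 1 and 2 was −3.78 for Mir127 and −2.53 for Mir540, which ranked 1 and 3 from the lowest of the 283 tested rows. Rank 2 was held by Mir6236 (−2.57), rank 4 by Mir216a (−2.17) and rank 5 by Mir217 (−2.04), all outside the region. Mir6236 had 150, 156 and 24.8 CPM in Fbxw7 KO and 31.5, 27.1 and 23.9 CPM in WT. Mir216a had 15.8, 16.6 and 2.82 CPM in Fbxw7 KO and at most 0.401 CPM in WT. Mir217 had 69.7, 75.7 and 16.9 CPM in Fbxw7 KO and at most 1.19 CPM in WT. In these rows replicate 3 lay nearer to WT than replicates 1 and 2 did. Within the group, the differences were −0.67 for Mir434, −0.59 for Mir431, −0.41 for Mir493, −0.40 for Mir673, −0.10 for Mir770 and −0.07 for Mir433, and Mir665 alone was higher, by 0.31. The median difference was −0.41 over the 9 miRNAs, −0.41 over the 32 tested rows downstream, where the lowest was −0.86, and 0.07 over the 242 tested rows outside the region. Among WT libraries Mir540 ranged over only 1.06-fold.

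**Figure D3:**
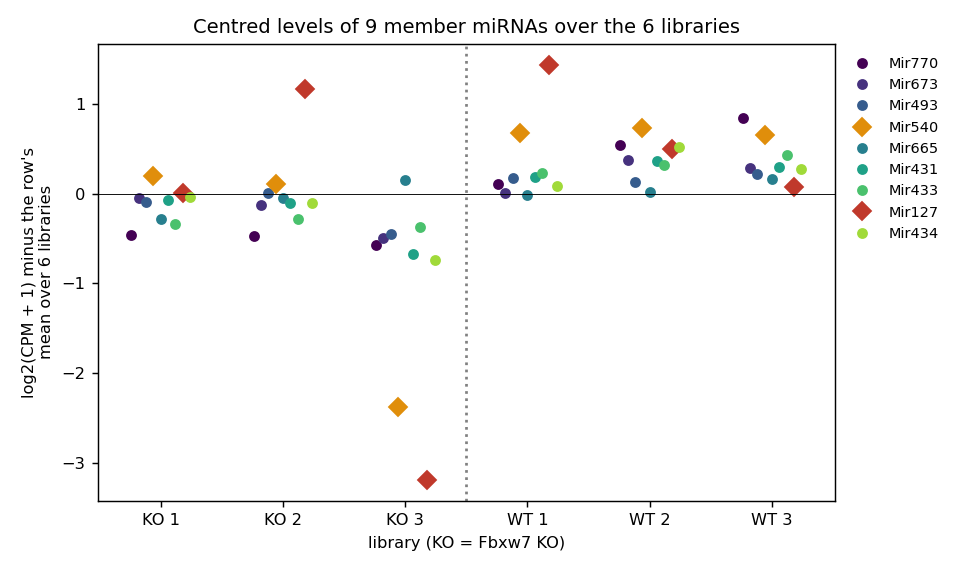
Log2(CPM + 1) of each of the 9 tested miRNAs minus its own mean over the 6 libraries, by library (Fbxw7 KO left of the dotted line, WT right). Diamonds mark Mir127 and Mir540, at −3.19 and −2.38 in Fbxw7 KO replicate 3, where the other seven lie between −0.74 and 0.15.

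Likeness of pattern was measured as the root mean square difference of centred log2(CPM + 1) over the 6 libraries, where a small value means a like pattern. Mir127 and Mir540 were each nearest to the other within the group, at 0.68. Mir431 and Mir434 were the closest pair of the 9, at 0.08. Among the 274 tested rows outside the group, those nearest to Mir770 were Mir409 (0.18) and Mir667 (0.20), both downstream in the region, and Mir6945 (0.21), where the median over the 274 was 0.62. Those nearest to Mir127 were Mir182 (1.03), Mir547 (1.04) and Mir122 (1.05), none of them in the region, with a median of 1.57. Beside the 0.08 of Mir431 and Mir434, none of these was a close match. Mir122 held at most 0.00232% of a library. The same 3 rows were nearest to Mir540, at 0.66, 0.65 and 0.65 in that order. Each was nearer to Mir540 than Mir127 was.

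The wider domain gives a comparison by position. Of the 44 rows further downstream in the region, 32 were tested, and of these 13 were called lower, none was called higher and 19 did not pass. Over all 283 tested rows 10.2% were called lower, and outside the region 13 of 242. None of the 32 was higher at an unadjusted p under 0.05 either, and none with DESeq2. The 13 downstream calls became 7 when Fbxw7 KO replicate 2 was left out, 8 for WT replicate 1 and 6 for WT replicate 2. In the same fits, calls over the whole table also went down, from 72 to 34, 42 and 35. Without Fbxw7 KO replicate 3 the downstream calls numbered 12. The median log2 fold change of the 32 was −0.43, against −0.56 for the 9 miRNAs and 0.13 for the 242 tested rows outside the region. These medians without Fbxw7 KO replicate 3 were −0.30 for the 32, −0.36 for the 9 and 0.11 for the 246 rows then tested outside the region. The downstream rows with the lowest p were Mir543 (log2 fold change −1.29), Mir341 (−0.88) and Mir409 (−0.94), each with an edgeR adjusted p of at most 0.00164, and the −1.04 of Mir770 lay within their range. The 7 remaining rows within the span of Meg3 or Rtl1, or between them, had too few counts to be tested, and 5 of them stood at 0. These were Mir1906-1, Mir337, Mir432, Mir3544 and Mir3071, while Mir3070a and Mir3070b had at most 7 counts in a library. Mir3544 lies wholly within Mir337 on the opposite strand, so the 0 of both, like that of Mir3071, was not read as a level.

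**Figure D4:**
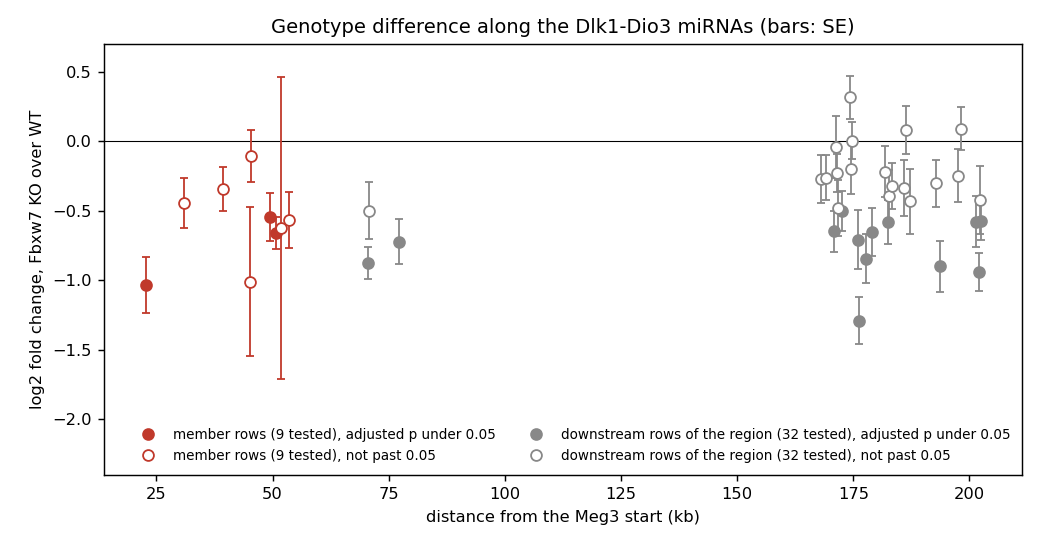
Log2 fold change of Fbxw7 KO over WT (± SE, edgeR) against distance from the Meg3 start in kilobases, for the 9 tested miRNAs described here (red) and the 32 tested rows downstream (grey), filled where the adjusted p was under 0.05. All 9 red points lie below 0, between −0.10 and −1.04, and the long bar is Mir127 with an SE of 1.09.

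TMM factors assume that most miRNAs do not differ, and the Dlk1-Dio3 rows hold a sizeable share of the counts. With factors taken from rows outside the region, the median over the 283 tested rows moved by −0.12 on the log2 scale. Mir770 then had −1.17 (edgeR adjusted p = 0.00642), Mir433 −0.79 (adjusted p = 0.0024) and Mir431 −0.67 (adjusted p = 0.035). New factors move all rows nearly alike, so values relative to the median of the same fit hardly change by construction. They were −1.09 for Mir770 and −0.71 for Mir433 with either set of factors. All 9 miRNAs kept a negative value in each of the 16 alternatives, Mir665 with as little as −0.00067.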

How the data were processed

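Per the file headers, the authors ran featureCounts 1.6.4 without regard to strand to obtain raw counts for each miRNA gene, so that both arms of a hairpin share 1 value and reads with several alignments or over several genes are left out by default. The submitters' processing notes name mm10, Cufflinks 2.2.1, deepTools, SAMtools 1.5 and TopHat2 2.1.1. Trimming is not given in the sources at hand. The FPKM values deposited by the authors equal count over length and TMM-scaled library total in all 1155 rows, within a relative difference of 1e-06, and so are no second measurement.

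The main test on counts used R 4.3.3 and edgeR 4.0.16 (TMM factors, filterByExpr with minimum count 10 and minimum total 15, robust glmQLFit, glmQLFTest, genotype as the only term, 2-sided). The test was checked on simulated counts with random changes in both directions. No single deviating library was built in, so that check does not bear on rows such as Mir127 and Mir540. SEs were derived from the F statistic, and CPM uses TMM-scaled totals. Alternatives used DESeq2 1.42.0, limma 3.58.1 on log2(FPKM + 1) or log2(FPKM + 0.1), other factors, no filter, a replicate block and leaving out each library. Replicates differed by more than sampling noise, so none was merged.

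All 10 members were named. The naming rule added up to 3 rows of the region called in each direction, by lowest p (none was called higher), overlapping rows, and the 3 rows nearest in pattern to Mir770 and to the member with the most counts, Mir127. Other rows named, among them Mir6236, Mir216a, Mir217, Mir206, Mir3070a and Mir3070b, were chosen after their values were seen. The members, lists and tests were chosen with earlier results of these data known.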

Additional observations from a re-analysis of the deposited data

How the results depend on the processing

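Over 16 alternatives, all 144 log2 fold changes of the 9 tested miRNAs stayed negative, and 129 stayed on their side of the threshold. These fits reuse the same 6 libraries, so the 144 values are not independent. Mir770 (adjusted p up to 0.0327) and Mir433 (up to 0.0241) passed in each. The log2 fold change of Mir431 ended its call at −0.51 with upper-quartile factors, −0.50 with library totals only and −0.54 without robust estimation and with log2(FPKM + 1), filtered or not, or log2(FPKM + 0.1) (adjusted p 0.0512 to 0.0879). Mir434 was called with DESeq2 (−0.60), with no filter (−0.54) and with the replicate block (−0.59, adjusted p = 0.0389). Leaving out 1 library at a time, the log2 fold changes ranged from −1.21 to −0.86 for Mir770, −0.65 to −0.36 for Mir431, −0.71 to −0.61 for Mir433, −1.37 to −0.52 for Mir540, −0.69 to −0.36 for Mir434 and −1.63 to −0.08 for Mir127.

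Leaving out 1 library at a time, calls over the whole table numbered 34 to 78 against 72, with 19 to 46 higher and 15 to 32 lower, and calls in the rest of the region 6 to 12 against 13. The whole-table number was 48 and 34 when Fbxw7 KO replicates 1 and 2 were left out in turn, and 42 and 35 for WT replicates 1 and 2. With log2(FPKM + 1) and no filter, 19 rows were lower against 29. Without Mir127, the share of counts in the 10 rows was 2.46% in Fbxw7 KO and 3.51% in WT, and with it 4.61% in Fbxw7 KO and 6.74% in WT. With Mir127 but without Fbxw7 KO replicate 3, the share was 5.89% in Fbxw7 KO. The Fbxw7 KO minus WT difference then went from −2.14 to −0.85 percentage points. Without Fbxw7 KO replicate 3, 4 of the 9 miRNAs were called lower, Mir540 being added, where 11.1% of the 287 tested rows were called lower. The cause of these changes was not tested.

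No label says that equal replicate numbers mark a shared litter, batch or day, and the libraries were not treated as pairs. Deviations from the group means correlated at −0.0601, 0.126 and 0.148 for numbers 1 to 3, where not every value is over 0.1, and Fbxw7 KO replicate 1 correlated best with WT replicate 2 (0.155). The block gave 76 calls and changed no call of the 9 other than that of Mir434. Counting depth limits Mir665 most, at 90 to 171 counts.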
